A study of Mus musculus with 19 samples.

Results

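The machinery that brings newly made proteins into the endoplasmic reticulum (ER) of dendritic cells was examined through 41 listed gene symbols: the signal recognition particle (SRP) and its receptor, the Sec61 channel with its partners, the signal peptidase complex, the ER membrane protein complex (EMC) and the GET pathway. Rows were found for 39 of these symbols among the 24421 genes of the count tables, and Camlg and Hm13 had no row and were skipped. All 39 passed the filter on low counts in both cell types. They comprised 8 SRP genes, 13 Sec61 genes, 5 signal peptidase genes, 10 EMC genes and 3 GET genes.

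The libraries were bulk RNA-seq of conventional dendritic cells of types 1 and 2 (cDC1 and cDC2) sorted from the spleen of C57BL6 mice. Each cell type was taken from WT mice, from mice deficient for Xbp1 (Xbp1 KO) and from mice deficient for both Xbp1 and Ire1a, the product of Ern1 (Xbp1-Ire1 KO). Every group held 3 libraries except cDC2 WT with 4, 19 in all. By their names, WT replicates 1 and 2 of each cell type carried floxed alleles of both genes (XBP1fl-fl-IRE1fl-fl), whereas replicate 3 of cDC1 WT and the other cDC2 WT libraries (replicates 3 and 4) bore a plain WT name. The deleting Cre, the deleted exons and the age of the mice are not stated in any source used here, nor is it said whether each library came from its own mouse, so p-values measure only the spread between these libraries. The WT libraries with different kinds of name stood apart: in cDC1 the chi-square per gene between the floxed pair was 13.6, and it was 75 and 71.7 between either of them and replicate 3. In cDC2 it was 24.8 and 15.3 within the 2 kinds of name and 52.3 to 69 between them.

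In the unfolded protein response, IRE1, an ER membrane kinase and endonuclease, cuts Xbp1 mRNA so that it encodes the active transcription factor XBP1s, which is known to raise secretory pathway genes. When XBP1 is missing IRE1 can become overactive and degrade other mRNAs at the ER, a process called regulated IRE1-dependent decay. SRP captures signal sequences as they leave the ribosome, Sec61 forms the pore, signal peptidase removes the signal sequence, and EMC and GET insert membrane segments that SRP handles poorly.

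Genes of the Sec61 channel with its partners and of the signal peptidase made up 10 of the 13 that fell when Xbp1 was lost in cDC1. These groups held 13 and 5 of the 39 members. Of the 39 genes, 13 fell in Xbp1 KO against WT with a median log2 fold change of -0.38 beside -0.02 over all genes, and none rose in this test (edgeR quasi-likelihood test, Benjamini-Hochberg adjusted p under 0.05 over all genes). In that comparison 11.2% of all 11353 tested genes were called, with 4.28% higher and 6.91% lower. Sec61b, Spcs3 and Sec61a1 had the most negative log2 fold changes, -1.22, -1.15 and -1.07. In Xbp1-Ire1 KO against WT, Spcs3 stood at -0.26 while Sec61b and Sec61a1 were still lower by 0.81 and 0.87. In cDC2 no member was called in any comparison of genotypes.

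For 4 genes lowered in cDC1 Xbp1 KO, the 250 bases before the RefSeq start in GRCm38.p6 are given, to show which carry letters of an XBP1s element. Capitals mark CCACGT, the core of elements that XBP1s is known to bind, on either strand. The first pair, from the α and γ subunits of the translocon-associated protein (TRAP) complex, holds it and the other pair, from a Sec61 subunit and a signal peptidase subunit, does not.
Ssr1, chr13:37994209-37994458, minus strand: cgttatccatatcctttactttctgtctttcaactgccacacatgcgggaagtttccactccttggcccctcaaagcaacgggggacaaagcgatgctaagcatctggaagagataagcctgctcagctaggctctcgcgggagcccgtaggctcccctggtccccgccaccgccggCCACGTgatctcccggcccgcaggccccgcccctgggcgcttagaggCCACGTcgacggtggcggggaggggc
Ssr3, chr3:65392554-65392803, minus strand: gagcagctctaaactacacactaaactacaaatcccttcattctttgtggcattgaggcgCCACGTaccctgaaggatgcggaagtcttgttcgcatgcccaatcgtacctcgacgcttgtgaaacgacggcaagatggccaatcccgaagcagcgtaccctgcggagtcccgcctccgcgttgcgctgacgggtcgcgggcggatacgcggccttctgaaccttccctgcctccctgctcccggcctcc
Sec61b, chr4:47474411-47474660, plus strand: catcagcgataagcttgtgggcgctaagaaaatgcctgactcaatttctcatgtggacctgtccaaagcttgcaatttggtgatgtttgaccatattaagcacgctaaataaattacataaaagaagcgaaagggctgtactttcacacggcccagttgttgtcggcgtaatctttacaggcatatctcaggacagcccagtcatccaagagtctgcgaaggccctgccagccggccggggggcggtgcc
Spcs2, chr7:99858884-99859133, minus strand: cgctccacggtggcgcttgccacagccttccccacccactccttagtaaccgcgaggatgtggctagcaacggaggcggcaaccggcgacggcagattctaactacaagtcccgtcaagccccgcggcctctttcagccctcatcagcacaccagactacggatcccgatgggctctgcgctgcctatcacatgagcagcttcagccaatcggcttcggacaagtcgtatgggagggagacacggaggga

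RefSeq promoters were matched to 29 of the 39 genes and gave 31 starts. CCACGT was present in 8 of these 31 windows (25.8%), against 6.91% of 32851 promoters of all genes and 7.61% of 21263 promoters of coding genes. Among the 10 promoters of members lowered in cDC1 Xbp1 KO, 4 held it, and among the other 21 promoters 4 held it. Counted from the start, Ssr1 carried it from positions -73 and -26, Ssr3 from -190, and Get4 in the promoters of both of its starts, while Srprb, Sec63, Spcs1 and Asna1 carried it without being called. GACGTG, which overlaps CCACGT by 5 bases in Ssr1 and Sec63 when read on the other strand, was in 5 of 31 windows (16.1%, against 5.2% of all promoters). The longer unfolded protein response element TGACGTGG and the ER stress elements ERSE and ERSE-II, searched on both strands, were in none of the 31 windows, and in 0.563%, 0.113% and 0.0304% of all promoters. These matches describe letters in a window and are not binding sites. Srp19, Srp68, Sec61a1, Ssr2, Tram1, Spcs3, Sec11c, Emc2, Emc8 and Mmgt1 had no entry.

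None of the 8 genes of the SRP and its receptor was called between genotypes in cDC1 in the main edgeR fit. The mean of their log2 CPM ranged over the WT libraries from 5.81 to 5.91, over Xbp1 KO from 5.62 to 5.79, and over Xbp1-Ire1 KO from 5.75 to 5.91. CPM is the count per 1000000 counts of the TMM-scaled library, scaled within the cell type. The median log2 fold change in Xbp1 KO against WT was -0.21, beside -0.02 over all genes. Srp9 and Srp14, which form the Alu domain that pauses translation, had log2 fold changes of -0.41 (SE 0.15, adjusted p = 0.0884) and -0.39 (SE 0.18, adjusted p = 0.177). Srpr, the receptor subunit that binds SRP at the ER, stood at 0.00 (SE 0.12, adjusted p = 0.994), and Srprb, its membrane anchor, at -0.36 (SE 0.20, adjusted p = 0.271). Against the floxed WT libraries only, Srprb was called lower in Xbp1 KO (adjusted p = 0.0439). Srp68 and Srp72, the large RNA-binding subunits, had values of -0.10 and 0.13, and Srp19 had -0.08. Srp54a, the GTPase that holds the signal sequence, was counted at only 2.28 to 3.45 CPM in cDC1. Its reads could be split with the near-identical copies Srp54b and Srp54c, so its level is uncertain.

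The Sec61 channel fell at its α and β subunits. Sec61a1, the pore-forming α subunit (chr6:88503579-88518905, minus strand), read 578, 510.4 and 389 CPM in WT, 238, 228 and 237 in Xbp1 KO and 253, 297 and 257 in Xbp1-Ire1 KO in cDC1. Every knockout library lay below every WT library, and Xbp1-Ire1 KO lay slightly above Xbp1 KO. Its log2 fold change was -1.07 (SE 0.14, adjusted p = 0.000346) in Xbp1 KO and -0.87 (SE 0.14, adjusted p = 0.00224) in Xbp1-Ire1 KO, both against the same WT libraries, and 0.20 (SE 0.14, adjusted p = 0.39) between the knockouts. Sec61b, the small β subunit (chr4:47474658-47483242, plus strand), read 158, 115 and 122 CPM in WT, 48.7, 49.4 and 70.8 in Xbp1 KO and 83.4, 58.2 and 82.8 in Xbp1-Ire1 KO. Its knockout groups overlapped each other, and all 6 knockout libraries were below WT, by 1.22 (SE 0.19, adjusted p = 0.0013) and 0.81 (SE 0.19, adjusted p = 0.0181) on the log2 scale. Sec61g, the γ subunit, varied more among libraries, with a log2 fold change of -0.69 (SE 0.25, adjusted p = 0.0908) in Xbp1 KO, and was not called in the main edgeR fit. It was called lower there by DESeq2 (adjusted p = 0.0431) and by edgeR with no filter on low counts (0.028). The low-level paralog Sec61a2 was at 1.36 to 3.22 CPM in cDC1, and it was not called.

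The 4 TRAP subunits, which sit beside the channel and help particular signal sequences to open it, all fell in Xbp1 KO cDC1. Ssr1 (α subunit; chr13:37966605-37994217, minus strand) read 388, 403 and 331 CPM in WT, 228, 243 and 235 in Xbp1 KO and 236, 212 and 223 in Xbp1-Ire1 KO. Ssr2 (β subunit) read 146, 118 and 90.9 CPM in WT, 64.9, 69.5 and 68.3 in Xbp1 KO and 72.9, 73.5 and 78.1 in Xbp1-Ire1 KO. In both genes all knockout libraries were below WT. The knockouts overlapped in Ssr1, and in Ssr2 those lacking both genes were slightly the higher. Their log2 fold changes were -0.67 (SE 0.12, adjusted p = 0.00268) and -0.81 (SE 0.16, adjusted p = 0.00528) in Xbp1 KO, and -0.74 (SE 0.12, adjusted p = 0.00153) and -0.66 (SE 0.16, adjusted p = 0.019) in Xbp1-Ire1 KO. Ssr3 (γ subunit) read 340.3, 298 and 275 CPM in WT, 186, 192 and 188 in Xbp1 KO and 262, 208 and 264 in Xbp1-Ire1 KO. Ssr4 (δ subunit) read 101, 88.8 and 78.8 CPM in WT, 48.4, 42.1 and 71.9 in Xbp1 KO and 87.2, 63.6 and 80.3 in Xbp1-Ire1 KO. For Ssr3 the Xbp1-Ire1 KO libraries lay between the other groups, and for Ssr4 they overlapped both. Against WT, Ssr3 and Ssr4 changed by -0.69 (SE 0.13, adjusted p = 0.00445) and -0.73 (SE 0.19, adjusted p = 0.0308) in Xbp1 KO, and had values of -0.32 (SE 0.13, adjusted p = 0.16) and -0.22 (SE 0.19, adjusted p = 0.548) in Xbp1-Ire1 KO. Between the knockouts Ssr3 and Ssr4 had values of 0.37 (SE 0.13, adjusted p = 0.0758) and 0.51 (SE 0.19, adjusted p = 0.103), neither called in the main edgeR fit. Ssr3 was called higher there by DESeq2 (adjusted p = 0.0424), in a fit of the knockouts alone (0.0477) and without Xbp1-Ire1 KO replicate 2 (0.0336). Ssr4 was called higher there without Xbp1 KO replicate 3 (0.0207). The Ssr4 call in Xbp1 KO against WT was lost without cDC1 WT replicate 1 or 2 or Xbp1 KO replicate 1 or 2, with adjusted p from 0.0798 to 0.143. The Ssr2 call in Xbp1-Ire1 KO was lost without WT replicate 1 or without any of the 3 Xbp1-Ire1 KO libraries, with adjusted p from 0.0536 to 0.0939, and that of Sec61b without WT replicate 1 (0.0919) or Xbp1-Ire1 KO replicate 2 (0.0637).

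Tram1, a membrane protein that contacts nascent chains at the channel, had the highest level per length of the members in cDC1 WT, at 228 CPM per kb of exon. It read 814, 736 and 616 CPM in WT, 446, 429 and 498 in Xbp1 KO and 459, 363 and 402 in Xbp1-Ire1 KO. Both knockouts were below WT throughout, at -0.66 (SE 0.14, adjusted p = 0.00799) and -0.82 (SE 0.14, adjusted p = 0.00224) on the log2 scale. Without Xbp1 KO replicate 2 the first of these was no longer called (adjusted p = 0.0558). Sec62 and Sec63, which assist chains that engage the channel after translation, were not called by edgeR, as Sec62 had 0.61 (SE 0.20, adjusted p = 0.0633) and Sec63 0.01 (SE 0.16, adjusted p = 0.986) in Xbp1 KO. Sec62 was called higher in Xbp1 KO by DESeq2 (adjusted p = 0.0244), by limma-voom (0.0444), by limma on the deposited log2 values (0.0451), with no filter on low counts (0.0295), and against the floxed WT libraries only (0.000529). Against those WT libraries it was also called higher in Xbp1-Ire1 KO (0.0041). Tmco1, a component of the translocon for multispanning proteins, had -0.35 (SE 0.15, adjusted p = 0.152). Tram2, a low-level paralog of Tram1 at 2.36 to 7.11 CPM, had -0.78 (SE 0.44, adjusted p = 0.269). Over the 13 Sec61 genes, 7 fell in Xbp1 KO and 5 fell in Xbp1-Ire1 KO against WT, beside 6.91% and 4.71% of all genes. None was called between the knockouts in the main edgeR fit.

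**Figure D1:**
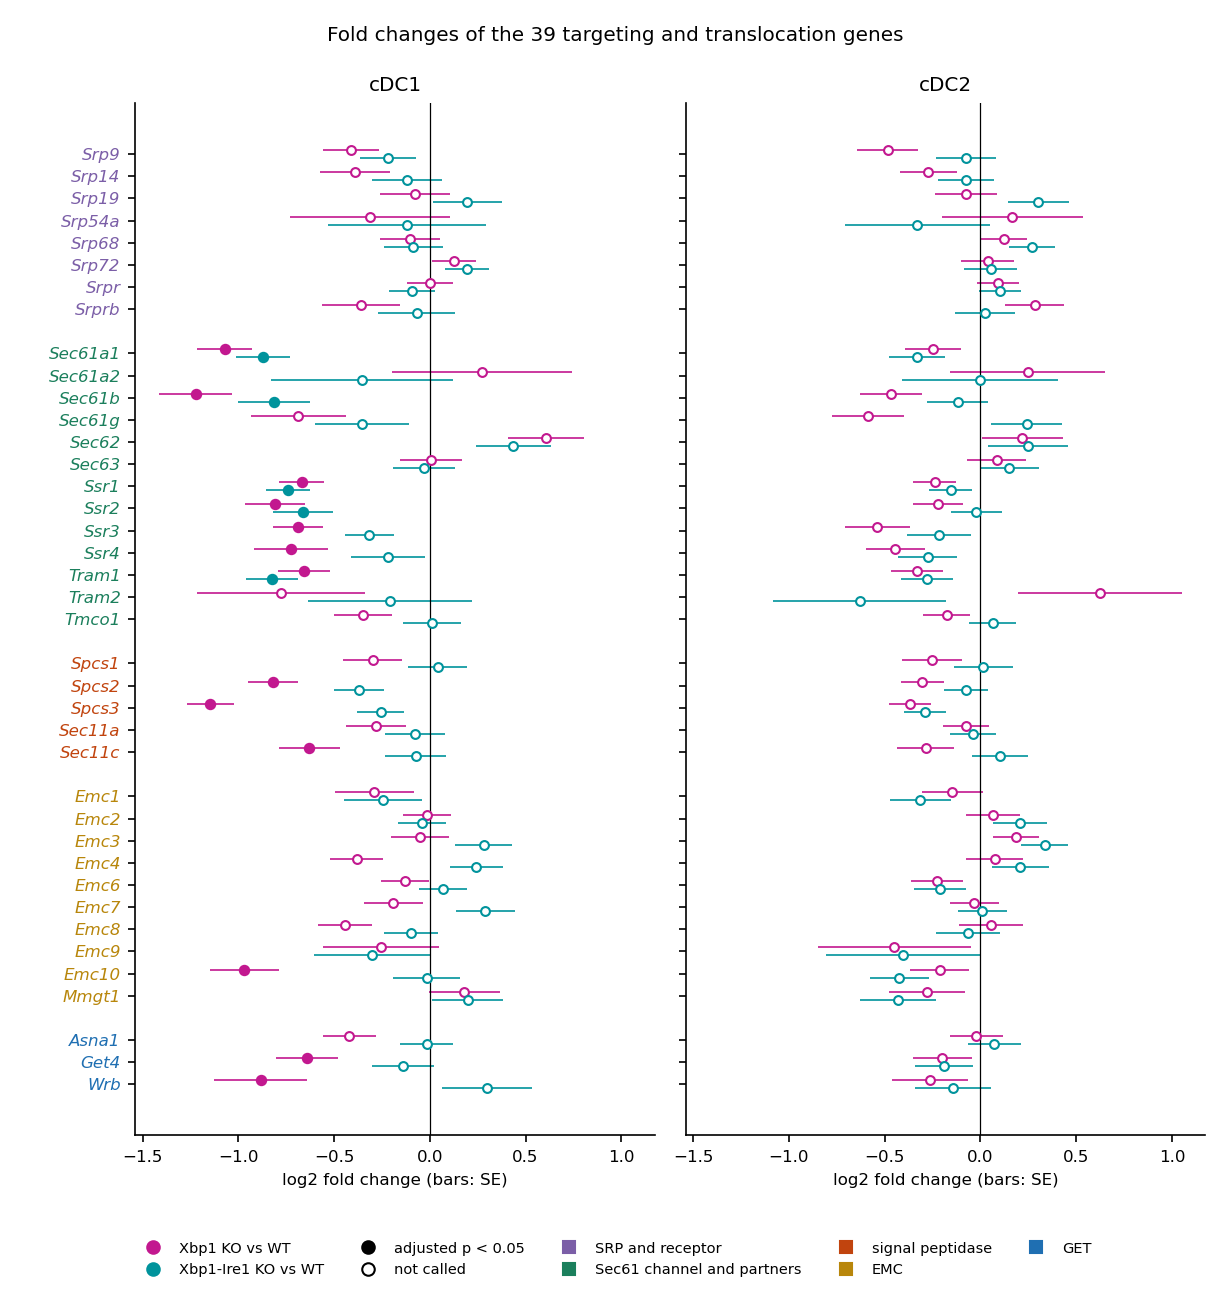
Log2 fold changes of the 39 genes against WT (x axis, bars are the SE) in cDC1 (left) and cDC2 (right), for Xbp1 KO and Xbp1-Ire1 KO, with gene names coloured by role; filled points passed an adjusted p of 0.05. In cDC1 the 13 filled Xbp1 KO points all lie left of 0 and 5 of these genes also have filled Xbp1-Ire1 KO points, while cDC2 has no filled point.

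In the signal peptidase, 3 of 5 genes fell in Xbp1 KO cDC1, beside 6.91% of all genes. The same 3 were called higher in Xbp1-Ire1 KO than in Xbp1 KO, beside 7.13% of all genes. Spcs3, an accessory subunit needed for cleavage (chr8:54520433-54529998, minus strand), read 668, 630.5 and 531 CPM in WT, 271, 261 and 294 in Xbp1 KO and 532, 469.6 and 529 in Xbp1-Ire1 KO. Xbp1 KO lay below all other libraries, and the highest Xbp1-Ire1 KO library just reached the lowest of WT. It fell by 1.15 (SE 0.12, adjusted p = 4.98e-05) on the log2 scale in Xbp1 KO, had -0.26 (SE 0.12, adjusted p = 0.23) in Xbp1-Ire1 KO against WT, and was 0.89 (SE 0.12, adjusted p = 0.000396) higher in Xbp1-Ire1 KO than in Xbp1 KO. The first and the last of these share the Xbp1 KO libraries.

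Spcs2, the subunit that contacts the channel (chr7:99837569-99863462, minus strand), read 298, 252 and 261 CPM in WT, 142, 148 and 169 in Xbp1 KO and 235, 187 and 205 in Xbp1-Ire1 KO. Sec11c, a catalytic subunit, read 199, 199 and 226 CPM in WT, 130.5, 118 and 155 in Xbp1 KO and 223, 149.9 and 220.0 in Xbp1-Ire1 KO. Spcs2 fell by 0.82 (SE 0.13, adjusted p = 0.00146) and Sec11c by 0.63 (SE 0.16, adjusted p = 0.025) on the log2 scale in Xbp1 KO. Against Xbp1 KO, Spcs2 was 0.45 (SE 0.13, adjusted p = 0.0388) higher and Sec11c 0.55 (SE 0.16, adjusted p = 0.039) higher in Xbp1-Ire1 KO. Spcs2 kept the groups apart, and for Sec11c 1 Xbp1-Ire1 KO library, replicate 2, lay within the Xbp1 KO range. Both of these later calls were lost without Xbp1-Ire1 KO replicate 1 or 3 or Xbp1 KO replicate 1 or 2, with adjusted p from 0.112 to 0.183, and the Sec11c call against WT without WT replicate 1 or 2 or Xbp1 KO replicate 1 or 2, with adjusted p from 0.0588 to 0.127. The other catalytic subunit, Sec11a, and the accessory Spcs1 were not called, with log2 fold changes of -0.28 and -0.30 in Xbp1 KO. Spcs1, Spcs2 and Spcs3 overlap genes on the opposite strand, and the sources used here do not say whether counting used strand.

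The EMC, an insertase for multispanning and tail-anchored proteins, changed at Emc10 and Emc4. Emc10, a lumenal subunit (chr7:44489937-44496529, minus strand), read 111, 93.5 and 64.4 CPM in WT, 45.9, 41 and 50.4 in Xbp1 KO and 80.0, 90.5 and 95 in Xbp1-Ire1 KO. Its Xbp1 KO libraries were below all others and its Xbp1-Ire1 KO libraries fell within the WT range. It fell by 0.97 (SE 0.18, adjusted p = 0.00415) on the log2 scale in Xbp1 KO and was 0.95 (SE 0.18, adjusted p = 0.0043) higher in Xbp1-Ire1 KO than in Xbp1 KO, with -0.02 (SE 0.18, adjusted p = 0.97) against WT. Emc4, another membrane subunit, read 45.3, 45.4 and 49.2 CPM in WT, 36.5, 32.5 and 38.3 in Xbp1 KO and 59.6, 48.3 and 57.7 in Xbp1-Ire1 KO. Xbp1 KO was the lowest group, and Xbp1-Ire1 KO overlapped WT. It was called only between the knockouts, at 0.63 (SE 0.14, adjusted p = 0.0115), with -0.38 (SE 0.14, adjusted p = 0.0951) for Xbp1 KO against WT. That call was lost without Xbp1-Ire1 KO replicate 1 or 3 or Xbp1 KO replicate 1 or 2, with adjusted p from 0.0504 to 0.0717. The other 8 EMC genes (Emc1, Emc2, Emc3, Emc6, Emc7, Emc8, Emc9 and Mmgt1) were not called between genotypes in the main edgeR fits. In Xbp1 KO against WT they ranged from -0.44 for Emc8 to 0.18 for Mmgt1. Emc7 was called higher between the knockouts by DESeq2 (adjusted p = 0.0353), in a fit of the knockouts alone (0.0381) and without Xbp1-Ire1 KO replicate 2 (0.0391). Emc8 was called lower in Xbp1 KO by DESeq2 (0.0492) and against the floxed WT libraries only (0.032). Against those libraries Emc1 was called lower in Xbp1 KO (0.0139) and in Xbp1-Ire1 KO (0.0253). Emc8 and Emc9 overlap neighbouring genes, as does Emc1.

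In the GET pathway, Wrb (Get1), the ER receptor subunit for tail-anchored proteins (chr16:96145407-96157852, plus strand), read 18.4, 12.1 and 11.9 CPM in WT, 8.81, 7.45 and 6.69 in Xbp1 KO and 18.2, 14.6 and 19.2 in Xbp1-Ire1 KO. Xbp1 KO was the lowest group, without overlap, and Xbp1-Ire1 KO overlapped WT. It fell by 0.88 (SE 0.24, adjusted p = 0.0332) in Xbp1 KO and was 1.18 (SE 0.24, adjusted p = 0.00695) higher in Xbp1-Ire1 KO than in Xbp1 KO, both on the log2 scale. The first call was lost without any 1 of the 6 compared libraries except WT replicate 3, with adjusted p from 0.0526 to 0.167. Get4, a cytosolic adaptor that hands clients on, read 70.4, 69.9 and 54 CPM in WT, 46.6, 33.8 and 44.2 in Xbp1 KO and 54.8, 55.9 and 65.5 in Xbp1-Ire1 KO and fell by 0.64 (SE 0.16, adjusted p = 0.0242) in Xbp1 KO, whose libraries were the lowest. Without WT replicate 1 or 2 or Xbp1 KO replicate 2 its adjusted p was 0.093 to 0.118. Asna1 (Get3), the ATPase that carries the clients, had -0.42 (SE 0.14, adjusted p = 0.0677) and was not called in the main edgeR fit. It was called lower in Xbp1 KO against the floxed WT libraries only (adjusted p = 0.0131). In a fit of the knockouts alone it was called higher in Xbp1-Ire1 KO (0.0433).

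**Figure D2:**
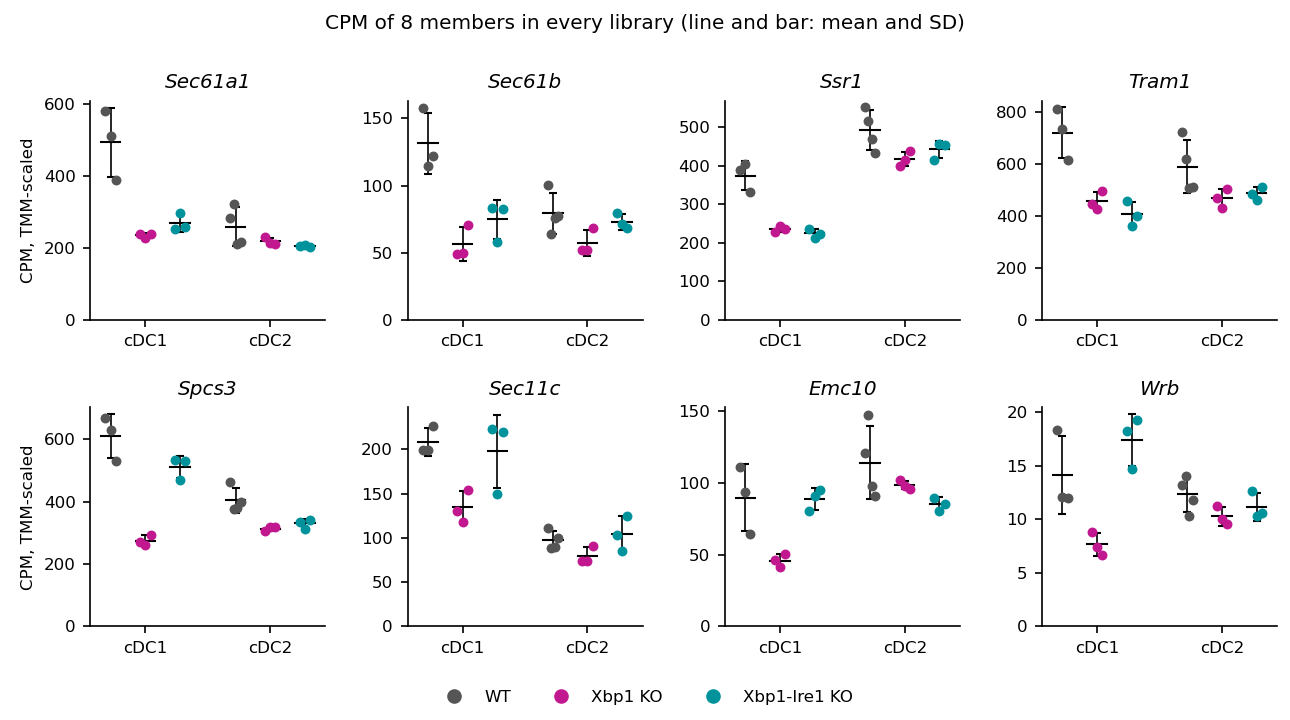
CPM of 8 members (y axis, from 0) in each of the 19 libraries, grouped by cell type and genotype; points are libraries, lines and bars the group mean and SD. In cDC1, Sec61a1, Sec61b, Ssr1 and Tram1 are low in both knockouts, while Spcs3, Emc10 and Wrb are low in Xbp1 KO and near WT in Xbp1-Ire1 KO.

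Set side by side, the role groups differed in how many members fell in cDC1 Xbp1 KO against WT: 0 of 8 SRP genes, 7 of 13 Sec61 genes, 3 of 5 signal peptidase genes, 1 of 10 EMC genes and 2 of 3 GET genes. Their median log2 fold changes were -0.21, -0.69, -0.63, -0.22 and -0.64, beside -0.02 over all genes, of which 6.91% were called lower. In Xbp1-Ire1 KO against WT, 5 of the 39 genes fell and none rose, all 5 in the Sec61 group, where 7.75% of all genes were called, 3.04% higher and 4.71% lower. Without WT replicate 1 or without Xbp1-Ire1 KO replicate 2 the count was 3, and without WT replicate 3 it was 9. The medians there were -0.09 for SRP, -0.35 for Sec61, -0.08 for signal peptidase, 0.03 for EMC and -0.02 for GET, beside 0.01 over all genes. In Xbp1-Ire1 KO against Xbp1 KO, 6 of 39 rose and none fell: 3 signal peptidase genes, 2 EMC genes and 1 GET gene, where 12.7% of all genes were called, 7.13% higher and 5.52% lower. That count was 3 without Xbp1-Ire1 KO replicate 1 or 3, or without Xbp1 KO replicate 1 or 2. These 3 comparisons share libraries, and no test was made between role groups.

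The members' summed share of all counts was between 0.477% and 0.517% in cDC1 WT, between 0.342% and 0.361% when Xbp1 was deleted, and between 0.396% and 0.438% when both were. In bulk libraries, fewer cells of a type and less RNA per cell cannot be told apart. The single plain-named library among them, WT replicate 3, was the lowest of the 3 WT libraries for Sec61a1, Spcs3, Emc10 and several others. Set against it alone, 4 members were called in Xbp1 KO (Sec61a1, Sec61b, Spcs2 and Spcs3), a fit in which the lone WT library is assumed to vary like the other groups. Against the 2 floxed WT libraries 19 were called, 18 lower and Sec62 higher. Over all genes, fits against these 2 libraries called 2926 of 11597 in Xbp1 KO and 1966 of 11597 in Xbp1-Ire1 KO. Without Xbp1 KO replicate 2, 8 members were called, beside 498 of 11617 genes. In Xbp1-Ire1 KO, 2 members were called against the plain-named library (Ssr1 and Tram1) and 9 against the floxed ones. A fit of Xbp1 KO and WT alone no longer called Get4, Ssr4 and Wrb (adjusted p = 0.0504, 0.0568 and 0.0792), limma-voom did not call Wrb (0.058), and a fit of Xbp1-Ire1 KO and WT alone did not call Ssr2 (0.0523).

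Total counts per library ranged from 10606864 to 16209469. The 6 cDC1 markers summed in cDC1 to between 4070 and 4910 CPM in WT, 5340 and 5980 in Xbp1 KO, above every other library, and 3970 and 5020 in Xbp1-Ire1 KO. They gave 878 to 1100 CPM in cDC2, and the 7 cDC2 markers gave 18.1 to 89.9 CPM in cDC1 and 2210 to 3090 in cDC2. Reads over the whole Xbp1 gene gave 143 to 233 CPM in cDC1 WT, with 89.7 to 113 after loss of Xbp1 and 301 to 353 after loss of both genes. In cDC2 the same groups gave 72.6 to 160.4, 42 to 56.9 and 57.3 to 78.1 CPM. Ern1 was highest in cDC1 labelled as lacking it, at 50.5 to 71.3 CPM in Xbp1-Ire1 KO against 22.4 to 29 in WT and 26.7 to 33.1 in Xbp1 KO, above every library of both, and it rose there by 1.29 (SE 0.17, adjusted p = 0.000467) on the log2 scale against WT. In cDC2 it gave 20.6 to 32.1 CPM in WT, 26.7 to 30.7 with Xbp1 deleted and 21.2 to 30.9 with both deleted, overlapping throughout. Higher counts of a gene in its knockout go against the label, but since the deleted exons are not known, counts over a whole gene do not check the labels. Transcripts of pancreatic acinar cells, a cell rich in this machinery, reached 2120 CPM, summed over 15 markers, in replicate 3 of cDC1 Xbp1 KO, and no other library exceeded 10.4 CPM. Without that library 12 members were called lower, with a median of -0.42. Of 8 plasma cell markers 6 had rows, and their sum did not exceed 52.6 CPM in cDC1 WT, 86.7 with Xbp1 deleted or 64.3 with both deleted. In cDC2 that sum was 45.9 to 68.5 CPM in WT, 77.9 to 152 with Xbp1 deleted, above WT, and 57.9 to 198 with both deleted. Red pulp macrophage markers were highest within cDC1 in Xbp1 KO replicate 2, at 889 CPM, and reached 1660 CPM in cDC2 Xbp1 KO. Markers of monocytes and neutrophils gave 24.9 to 32.4 CPM in cDC1 WT and up to 97.5 and 133 CPM in cDC1 with Xbp1 and with both genes deleted. Markers of plasmacytoid dendritic cells in cDC2 gave 97.5 to 114 CPM in WT and 132 to 158 with Xbp1 deleted. The part of these marker differences in the results was not tested beyond the counts without single libraries.

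In cDC2 no member was called between genotypes, and as a sum, which was not tested, the members were lower in Xbp1 KO. Their share of all counts was 0.455% and 0.4% in the floxed and 0.365% and 0.378% in the plain-named WT libraries of cDC2. It was 0.339%, 0.319% and 0.353% with Xbp1 deleted, below every WT library, and 0.366%, 0.34% and 0.374% with both deleted, overlapping WT. The median log2 fold change in cDC2 Xbp1 KO was -0.20, with 26 of 39 members below 0, beside -0.02 over all genes. None of the 39 was called in Xbp1 KO, in Xbp1-Ire1 KO or between them, where 0.103%, 0.0258% and 0.0343% of 11646 genes were called by edgeR. At an unadjusted p under 0.05, 8 members were lower in Xbp1 KO than in WT, 4 were lower and 2 higher in Xbp1-Ire1 KO, and 4 were higher and 1 lower between the knockouts. Such unadjusted counts are not calls. The share of all genes at that threshold is not reported here, so nothing is concluded from them. DESeq2 and limma-voom also called none. Sec61a1 read 282, 322, 211 and 216 CPM in WT, 229, 212 and 211 in Xbp1 KO and 206, 207 and 203 in Xbp1-Ire1 KO in cDC2. The groups overlapped for Xbp1 KO, and the log2 fold change was -0.25, with a 95% interval of -0.53 to 0.04. Spcs3 read 462, 378, 378 and 399 CPM in WT, 305, 317 and 319 in Xbp1 KO and 336, 314 and 342 in Xbp1-Ire1 KO in cDC2. All its knockout libraries were below WT there, with log2 fold changes of -0.37 (interval -0.58 to -0.15) and -0.29 (interval -0.51 to -0.07). These intervals are not adjusted for the number of genes, and neither change was called. Against the 2 floxed cDC2 WT libraries alone, 4 members were called in Xbp1 KO and 2 in Xbp1-Ire1 KO, in fits where the count over all genes reached 740 and 485.

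Tests of the difference between cell types singled out few members. In a fit of all 19 libraries, the effect of Xbp1 KO against WT was more negative in cDC1 than in cDC2 for Sec61a1, by 0.83 (SE 0.21, adjusted p = 0.0349), and for Spcs3, by 0.79 (SE 0.15, adjusted p = 0.00452), on the log2 scale. That comparison called 2.17% of 12185 genes, 1.84% in this direction. For Xbp1-Ire1 KO against WT only Ssr1 differed among the members, at -0.61 (SE 0.15, adjusted p = 0.0307), beside 2.23% of all genes, 1.48% more negative in cDC1. For Xbp1-Ire1 KO against Xbp1 KO, Spcs3 at 0.80 (SE 0.16, adjusted p = 0.00602) and Emc10 at 1.15 (SE 0.25, adjusted p = 0.0142) were more positive in cDC1, beside 2.14% of all genes, 1.82% in this direction. In cDC2 Emc10 read 120.5, 147, 97.5 and 91 CPM in WT, 102, 97.8 and 95.7 in Xbp1 KO and 89.6, 80.2 and 85.3 in Xbp1-Ire1 KO, with its lowest values in Xbp1-Ire1 KO. The Sec61a1 difference was lost without any 1 of 10 of the 13 libraries of those groups (adjusted p from 0.0662 to 0.136; WT replicate 3 of cDC1 and WT replicates 1 and 2 of cDC2 were the exceptions), and that of Ssr1 without any except cDC1 WT replicate 3 and cDC2 WT replicate 1 (0.0572 to 0.0977). That of Emc10 was lost without cDC1 Xbp1 KO replicate 2 (0.0518), and those of Spcs3 held without each library in turn. Against plain-named WT libraries only, the Spcs3 difference in Xbp1 KO had an adjusted p of 0.0953. The Ssr1 difference was also lost with no filter on low counts (0.0692), with the floxed WT libraries only (0.0632) and with the plain-named ones only (0.125).

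**Figure D3:**
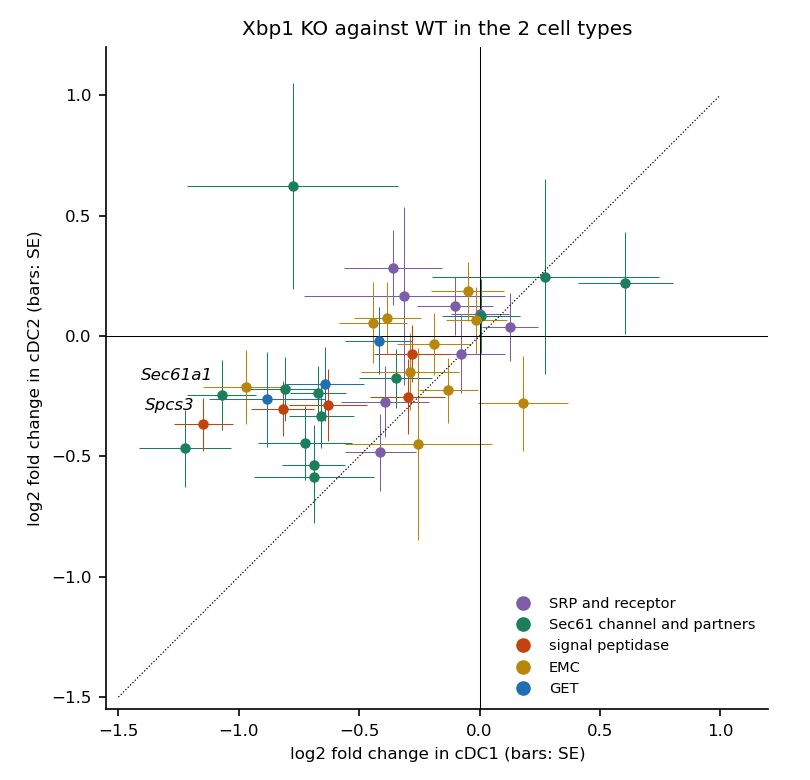
Log2 fold change of each member in Xbp1 KO against WT in cDC1 (x axis) and cDC2 (y axis), bars are the SE, colours the roles and the dotted line equality. Sec61a1 and Spcs3, named because the difference between cell types passed the test, lie near -1.1 in cDC1 and at -0.25 and -0.37 in cDC2.

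Before any deletion, more of these genes were higher in cDC1 than in cDC2. In WT, 21 of the 39 genes were higher in cDC1 than in cDC2 and 2 were lower, beside 40.8% of all genes called, 20% higher and 20.7% lower, and the members' median log2 difference was 0.39, beside -0.04 over all genes. CPM in this comparison was scaled over all 19 libraries together. Higher in cDC1 were 4 of 8 SRP genes, 8 of 13 Sec61 genes, 5 of 5 signal peptidase genes, 3 of 10 EMC genes and 1 of 3 GET genes. Ssr3 read 349.8, 308 and 283 CPM in cDC1 and 170.0, 126, 102 and 106 in cDC2. Sec11c read 205, 206 and 233 CPM in cDC1 and 107, 85.2, 87.3 and 97.6 in cDC2. Neither gene's groups overlapped, and the log2 differences were 1.32 (SE 0.15, adjusted p = 3.56e-07) and 1.19 (SE 0.15, adjusted p = 2.53e-06). Sec63 read 65.5, 66 and 101 CPM in cDC1 and 35.4, 28.3, 37.3 and 45.2 in cDC2, and differed by 1.09 (SE 0.15, adjusted p = 8.28e-06). Sec61g read 114, 82.5 and 125 CPM in cDC1 and 70.6, 38, 52.3 and 49.8 in cDC2, and differed by 1.02 (SE 0.23, adjusted p = 0.00101). Both genes were thus higher in cDC1 while neither was called between genotypes in the main edgeR fits.

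Among the other channel genes, Sec61a1 was higher in cDC1 WT by 1.03 (SE 0.14, adjusted p = 4.95e-06), Sec61b by 0.82 (SE 0.18, adjusted p = 0.000742), Ssr2 by 1.02 (SE 0.13, adjusted p = 3.14e-06) and Ssr4 by 1.06 (SE 0.17, adjusted p = 3.55e-05) on the log2 scale. Tram1 was higher by 0.39 (SE 0.13, adjusted p = 0.0198), with groups that overlapped. In the signal peptidase, Sec11a read 97, 78 and 68.8 CPM in cDC1 and 54, 50.7, 51.4 and 47.9 in cDC2, a difference of 0.67 (SE 0.12, adjusted p = 0.000194). Spcs2, Spcs3 and Spcs1 differed by 0.86, 0.69 and 0.49, with adjusted p of 1.78e-06, 1.79e-05 and 0.0139. All 5 signal peptidase genes were thus called higher in cDC1. The Spcs1 call was lost with only the floxed (0.143) or only the plain-named WT libraries (0.0833), and that of Sec11a with only the plain-named ones (0.0756).

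In the SRP, Srp9 read 164, 142 and 154 CPM in cDC1 and 117, 84.2, 75.2 and 89.6 in cDC2, Srp14 143, 132 and 142 CPM in cDC1 and 109, 90.9, 89.1 and 98 in cDC2, and Srp19 54.5, 47.6 and 54.9 CPM in cDC1 and 38.6, 25.1, 32.8 and 40.6 in cDC2. Their log2 differences were 0.74 (SE 0.15, adjusted p = 0.000446), 0.52 (SE 0.17, adjusted p = 0.0157) and 0.61 (SE 0.17, adjusted p = 0.00641), and the cDC1 libraries lay above those of cDC2 in all 3 genes. Srpr differed by 0.29 (SE 0.10, adjusted p = 0.0216). In the insertion pathways, Asna1 read 60.3, 55 and 47.3 CPM in cDC1 and 31.8, 31.3, 30.1 and 28.6 in cDC2, a difference of 0.83 (SE 0.12, adjusted p = 1.22e-05). Emc4 read 46.5, 47 and 50.8 CPM in cDC1 and 29.1, 29.1, 30.6 and 41.8 in cDC2, a difference of 0.56 (SE 0.14, adjusted p = 0.00226), and Emc7 and Emc6 differed by 0.46 and 0.33 (adjusted p = 0.00702 and 0.0319).

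The 2 exceptions lay in the Sec61 group. Ssr1 read 399, 417 and 341 CPM in cDC1 and 528, 494, 454 and 422 in cDC2, lower in cDC1 by 0.30 (SE 0.10, adjusted p = 0.0227) although the other TRAP subunits were higher there. Sec62 read 27.6, 29.9 and 48.4 CPM in cDC1 and 62.1, 41.9, 79.3 and 48.9 in cDC2, lower in cDC1 by 0.72 (SE 0.22, adjusted p = 0.0118), with groups that overlapped. Without cDC1 WT replicate 1, the calls of Srp14, Srpr, Sec62, Tram1 and Emc6 were lost (adjusted p = 0.0513, 0.0703, 0.0742, 0.126 and 0.0936). Without cDC1 WT replicate 2, those of Srpr, Sec62, Tram1 and Emc6 were (0.0548, 0.0612, 0.0616 and 0.106), and without cDC2 WT replicate 3 the same 4 (0.0621, 0.0536, 0.0733 and 0.0571). That of Ssr1 was lost without cDC1 WT replicate 3 (0.111) or cDC2 WT replicate 1 (0.0686). Without cDC2 WT replicate 4, those of Tram1 (0.0705) and Emc6 (0.0783) were lost, and without cDC2 WT replicate 1 that of Emc6 (0.0552). With no filter on low counts, the calls of Srpr (0.0601), Ssr1 (0.0521) and Emc6 (0.0606) were lost. With only the floxed WT libraries, the calls of Srp14 (0.143), Srpr (0.138), Tram1 (0.0938), Emc6 (0.11) and Emc7 (0.128) were lost besides that of Spcs1. With only the plain-named ones, which leave 1 cDC1 WT library, Srp14, Srp19, Srpr, Sec62, Ssr1, Tram1, Emc4 and Emc6 were not called. Their log2 differences kept their signs there.

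**Figure D4:**
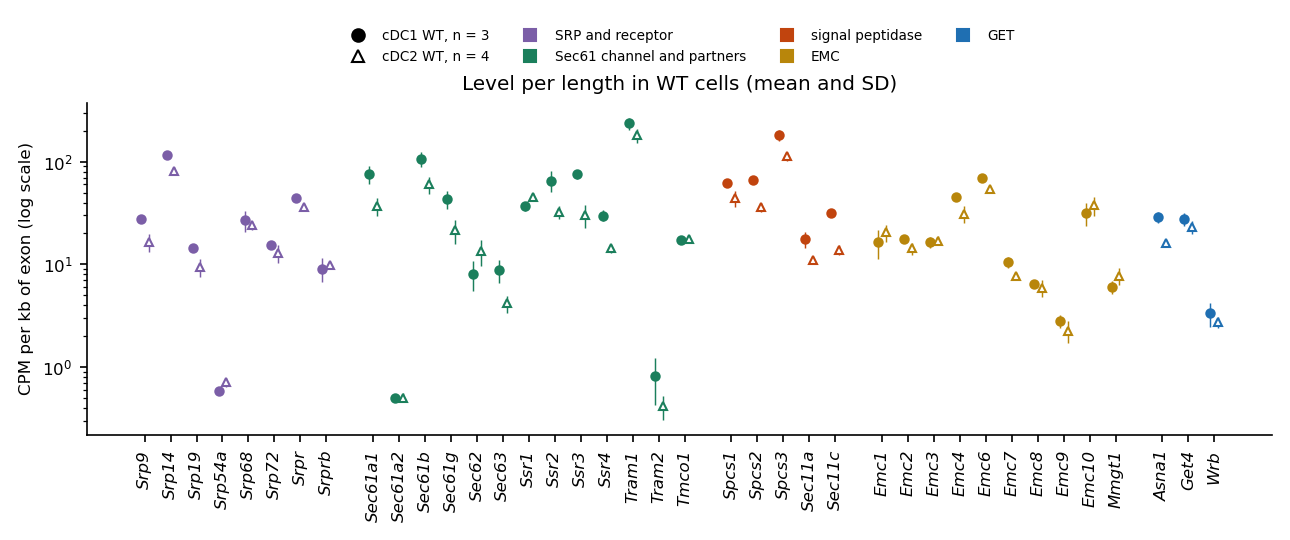
Level per length in WT cells, as CPM per kb of exon on a log axis (mean and SD), with filled circles for cDC1 and open triangles for cDC2, coloured by role. Tram1 and Spcs3 stand highest, Sec61a2, Srp54a and Tram2 lowest, and the signal peptidase circles all lie above their triangles.

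Genes that work beside the channel also changed in cDC1. Of 12 oligosaccharyltransferase genes, whose enzyme attaches glycans to chains leaving the channel, 7 fell in cDC1 Xbp1 KO against WT and none rose, beside 6.91% of all genes lower. Rpn1 fell by 2.27 (SE 0.15, adjusted p = 1.1e-06), Ddost by 1.24 (SE 0.15, adjusted p = 0.000118), Rpn2 by 1.28 (SE 0.17, adjusted p = 0.000332) and Stt3a, a catalytic subunit, by 0.99 (SE 0.14, adjusted p = 0.000628) on the log2 scale. In Xbp1-Ire1 KO against Xbp1 KO, 6 of the 12 rose, beside 7.13% of all genes, with Rpn1 at 2.31 (SE 0.15, adjusted p = 6.42e-07) and Rpn2 at 1.13 (SE 0.17, adjusted p = 0.000847). Against WT, 2 fell in Xbp1-Ire1 KO, beside 4.71% of all genes, Ost4 at -0.75 (SE 0.14, adjusted p = 0.0045) and Stt3a at -0.72 (SE 0.14, adjusted p = 0.00685), and Stt3b, the other catalytic subunit, rose by 0.55 (SE 0.14, adjusted p = 0.0314). Of 14 tested genes of other targeting and insertion factors, 2 fell in Xbp1 KO (14.3%, beside 6.91% of all genes): Tmem208, of the SRP-independent route, by 2.04 (SE 0.22, adjusted p = 4.98e-05), and Ncln, of the multipass translocon, by 1.53 (SE 0.20, adjusted p = 0.000345). Between the knockouts 5 of these 14 rose, beside 7.13% of all genes, among them Tmem208 by 2.14 (SE 0.22, adjusted p = 2.75e-05), Ncln by 1.75 (SE 0.21, adjusted p = 9.22e-05) and Nomo1, the partner of Ncln, by 0.94 (SE 0.18, adjusted p = 0.00465). In Xbp1-Ire1 KO against WT 1 of the 14 was called (7.14%, beside 3.04% of all genes higher): Naca, of the nascent chain complex, rose by 0.67 (SE 0.16, adjusted p = 0.0235). None of either list was called in cDC2, where at most 0.103% of all genes were.

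Over the 9 cDC1 libraries, the genes outside the members with profiles most like Sec61a1 were Gorasp2, Stt3a, Ndst2, Ucp2 and Htra2 (Pearson r of log2 CPM from 0.975 to 0.993). The libraries share genotype and depth, so these values describe likeness of profile and carry no test.

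The transcripts were also searched for the stem-loop that IRE1 is known to cut, taken as the loop CNGCAGN closed by 4 base pairs, on the sense strand of the longest coding transcript of each gene in the GENCODE annotation. Capitals mark the loop. The known splice sites of Xbp1 were both found, and Spcs1 was the only member with a match.
Xbp1, chromosome 11, from base 808 of the transcript: gagtCCGCAGCactc
Xbp1, chromosome 11, from base 834 of the transcript: acctCTGCAGCaggt
Spcs1, chromosome 14, from base 1 of the transcript: ggcgCAGCAGGcgcc
Thus 1 of 39 members held the motif (2.56%), beside 678 of 21877 genes (3.1%), and none of the 13 members lowered in cDC1 Xbp1 KO did. Spcs1 itself was not called in any comparison of genotypes. No match says only that these letters, paired this way, are not in that transcript.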

How the data were processed

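Total RNA of sorted cDC1 and cDC2 was sequenced in bulk. Per the submitters' processing notes, FastQC 0.11.4, Trimmomatic 0.35, TopHat2 2.1.0, SAMtools 0.1.19 and limma 3.42.2 were used with the mm10 build; no source used here names the counting program or its strand setting. The authors deposited whole-number counts per gene for each cell type, not normalized, and these were tested. The deposited log2 values equal log2 of the count plus 0.5 over the total count, shifted by an offset per library, and served only as an alternative.

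Genes were kept with edgeR 4.0.16 (filterByExpr, minimum count 10, minimum total 15), scaled by TMM and tested with its quasi-likelihood F-test (R 4.3.3), the 3 genotypes of a cell type together. Differences between cell types and WT cDC1 against cDC2 came from a fit of all 19 libraries. P-values were adjusted by Benjamini-Hochberg over all tested genes, with calls under 0.05. These are the main edgeR fits, and a gene is called or not called by them unless another setting is named. SE is the log2 fold change divided by the root of F. The tests were checked on simulated counts. No libraries were duplicates. Library totals of 10606864 to 16209469 counts limit precision for genes of a few CPM.

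The members and lists were chosen with earlier results of these data known. All members are named; libraries are listed for members called with a log2 change of at least 0.5, and called genes of other lists are named up to 4 by adjusted p. The 5 genes with profiles most like Sec61a1 are named by correlation, and those for Spcs3 are not reported here. The labels do not say whether replicate numbers pair the libraries of a cell type, or whether cDC1 and cDC2 came from the same animals. Alternatives were DESeq2 1.42.0 and its size factors, limma-voom 3.58.1, other filters, each replicate left out, a replicate block, the 2 kinds of WT names and, added after seeing the data, a random block for numbers that library names share between cell types. Gene positions and exon lengths are GENCODE's for GRCm38, promoters RefSeq's.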

Additional observations from a re-analysis of the deposited data

Results flagged for a closer look

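In cDC2 WT, 1 library lay far from the other 3 in 2 of the 39 genes, in CPM scaled within cDC2: Emc3 at 67.39 CPM and Emc4 at 42.79 CPM, both in replicate 4, and both the highest of the group. By this criterion chance alone flags about 1 in 20 groups of 4. Emc3 and Emc4 were not called between genotypes in cDC2.

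The effect of a genotype differed between cDC1 and cDC2 in 5 tests. For Xbp1 KO against WT the cDC1 effect minus the cDC2 effect was -0.83 for Sec61a1 and -0.79 for Spcs3 on the log2 scale (edgeR adjusted p = 0.0349 and 0.00452). For Xbp1-Ire1 KO against WT it was -0.61 for Ssr1 (0.0307). For Xbp1-Ire1 KO against Xbp1 KO it was 0.80 for Spcs3 (0.00602) and 1.15 for Emc10 (0.0142). Between the knockouts Emc10 was higher by 0.95 in cDC1 and stood at -0.21 in cDC2, where it was not called.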

How the results depend on the processing

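No result reversed under any alternative run. Of 52 calls of single genes, 22 held in every alternative, and over 844 comparisons of a call with an alternative 727 kept it and 117 lost it. For cDC1 knockouts against WT, using floxed WT libraries only and leaving out WT replicate 3 are the same fit. These totals count that fit 2 times for each such call. With plain-named WT libraries only, the members called were 4 in cDC1 Xbp1 KO (13 with all), 2 in cDC1 Xbp1-Ire1 KO (5), 1 and 0 in the tests of the cell types' difference for these contrasts (2 and 1), and 14 in WT cDC1 against cDC2 (23). With floxed WT libraries only, they were 9 in cDC1 Xbp1-Ire1 KO, 4 and 2 in cDC2 Xbp1 KO and Xbp1-Ire1 KO (0 and 0), and 0 in the difference for Xbp1-Ire1 KO. A fit of the knockouts alone called 10 in cDC1 Xbp1-Ire1 KO against Xbp1 KO (6), and no filter called 0 in the difference for Xbp1-Ire1 KO. Leaving out 1 library gave 8 to 19, 3 to 9 and 3 to 9 in the 3 cDC1 comparisons, 0 in cDC2, 1 to 4, 0 to 2 and 1 to 2 in the differences between cell types, and 18 to 23 in WT cDC1 against cDC2. Over all genes, the cDC1 Xbp1 KO count of 1270 ranged from 345 to 2926. The cause was not tested. Fits of WT by name or without a library that leave 1 library in a group assume that it varies like the others.

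Whether the replicate numbers pair libraries within a cell type is not stated. In deviations from group means, same-numbered libraries correlated from -0.195 to 0.263 in cDC1 and from -0.165 to 0.321 in cDC2, over 0.1 in 3 and 2 of 9 pairs. Between the knockouts, pairs numbered 1, 2 and 3 gave -0.0324, 0.263 and 0.105 in cDC1, and 0.0446, 0.321 and 0.229 in cDC2. Deviations within a group of so few libraries depend on each other, so these values cannot show whether the numbers pair libraries. With a replicate block, 14, 5 and 7 members were called in the cDC1 comparisons, 0 in cDC2, 2, 0 and 2 in the differences and 24 in WT cDC1 against cDC2. The unblocked counts were 13, 5 and 6, 0, 2, 1 and 2, and 23. Under this block the Ssr1 difference between cell types for Xbp1-Ire1 KO (adjusted p = 0.0597) and the Emc6 difference between WT cells (0.0698) were not called, and Sec61g, Emc7, Emc2 and Srp72 were newly called in 1 comparison each. Between cell types, the 6 pairs of libraries with the same number in their names correlated from -0.251 to 0.131, over 0.1 in 2. With that number as a random block in limma-voom, chosen after seeing the data, the consensus correlation was 0.209, and 3, 1 and 2 members were called in the differences and 25 between WT cells, including every member called without it. Sec61a2, Tram2, Srp54a and Emc9, the members with the lowest counts, had SEs of 0.47, 0.44, 0.42 and 0.30 in cDC1 Xbp1 KO against WT, so small changes in them were not detectable at this depth.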
